A study of Homo sapiens with 4 samples.

Results

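The peaks described here are the 2595 H3K14ac peaks of control MKN45 cells that overlap, by at least 1 bp, the longest gene-free stretch of chromosome 1 (chr1:121571889-143299517, hg38) or of chromosome 16 (chr16:36102206-46469336). They make up 6.51% (exact 95% interval 6.27 to 6.75) of the 39876 peaks in the control list, with 1467 on chromosome 1 and 1128 on chromosome 16. The rule takes peaks by position and uses no width, height or spacing. Each peak is 1 entry of a list that the authors deposited, called on 1 library.

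The study used MKN45, an established human gastric cancer cell line, with a hairpin against NIT2 (shNIT2), an omega-amidase of glutamine metabolism, or with a control hairpin (shNT). The title of the series names oxidative phosphorylation and resistance to fluorouracil as its subject. Each kind of cell gave 1 H3K14ac ChIP-seq library and 1 input library, and 1 peak list per H3K14ac library was used here. The labels do not say whether a line was a clone or a pool, and no expression values were used here to check the knockdown. With 1 library per condition, no difference below has a replicate check, and the intervals cover counting error only.

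Acetylation of lysine 14 on histone H3 is laid down by acetyltransferases such as HBO1 and GCN5 and is best known at active promoters and enhancers. Centromeres and the chromatin beside them are built on tandem satellite repeats. Alpha satellite, in short monomers that are often grouped into higher-order repeats, underlies the centromere itself. Classical satellite forms the large heterochromatic blocks next to the centromeres of chromosomes 1 and 16, a chromatin known for H3K9 methylation rather than acetylation. The hg38 assembly stands for alpha-satellite arrays with modelled sequence and leaves much of those blocks as unsequenced gaps, to which no read can align.

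Cell-type markers and fragment numbers were looked at first. Of 10 epithelial and gastrointestinal marker genes, 10 had a peak within 1 kb of a gene end in the shNIT2 list and 5 in the shNT list. Of 8 markers of other cells, 4 did so in the shNIT2 list (VIM, ZEB1, CD3E and NEFL) and 0 in the shNT list. The share of all genes with such a peak is not given here, so these counts by themselves do not identify the cells. The 2 lists differed in the scale of their fragment numbers. The median fragment pileup at a summit was 22 in shNIT2 and 6 in shNT, and the lowest background was 2.48 and 0.278 fragments in that order of libraries. Total reads are unknown, so sequencing depth itself was not compared. Pileup and background are fragment numbers solved from the authors' fold enrichment and p-value at each summit, where the fold is the pileup plus 1 over the background plus 1.

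On chromosome 1, most control peaks lay in 1 compact run near the low end of the stretch, and none in the long part that follows it. The run reached from 122503487 to 124784408, spanned 2.28 Mb and held 1344 peaks, which is 91.6% of those in the stretch. Before it lay 65 peaks between 121612438 and 122500159, and after it 17 peaks between 124812472 and 125183735. Then no peak lay between 125183736 and 143184637, which is 82.8% of the stretch. The last 41 peaks stood in the 111 kb from 143184638 to 143295294, next to the lncRNA gene LOC101929814.

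On chromosome 16 the layout was alike and still more compact. A single peak (36190268 to 36190578) stood apart, and 1114 peaks, 98.8% of those in the stretch, filled a run of 1.95 Mb from 36335043 to 38280491. No peak lay in the next 8.11 Mb, from 38280492 to 46386211, or 78.2% of the stretch. The other 13 stood in 79.9 kb from 46386212 to 46466158, next to the pseudogene ANKRD26P1. In all, 2458 of the 2595 peaks lay in the 2 runs and 54 beyond the peak-free intervals. Whether those intervals are gaps of the assembly, where no peak can be called, was not tested, so their emptiness says nothing about classical satellite. Which satellite lies under a peak was not determined, since no genome sequence or repeat annotation was used here.

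**Figure D1:**
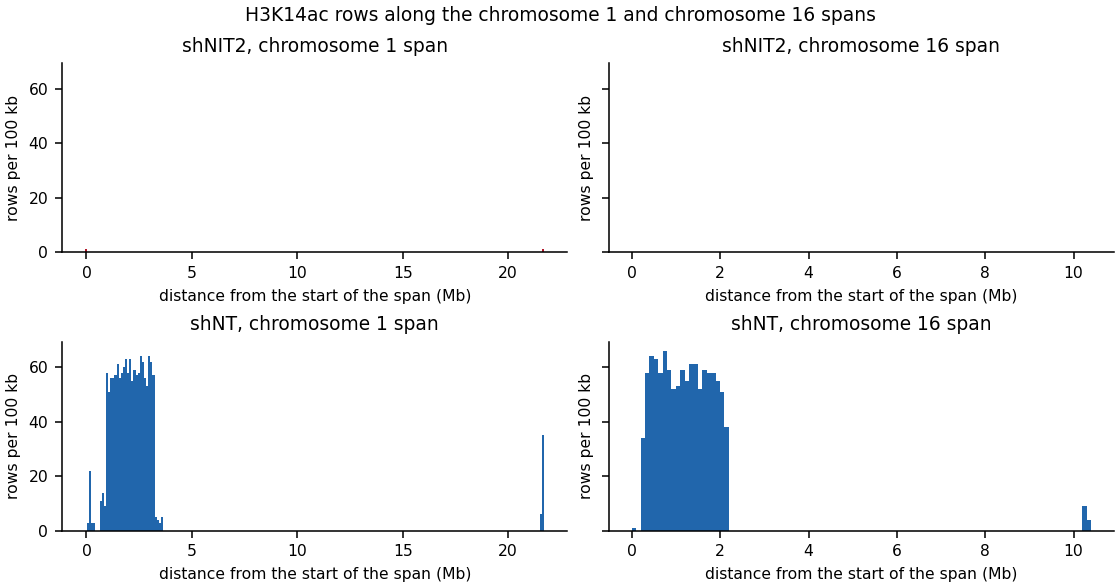
Peaks (rows of each list) per 100 kb window against the distance from the start of the stretch, for shNIT2 (top) and shNT (bottom), with chromosome 1 left and chromosome 16 right. The shNT peaks fill a run of 2.28 Mb on chromosome 1 and of 1.95 Mb on chromosome 16 at a near-constant height and return in a short group beyond the empty interval. The shNIT2 panels hold 2 peaks and 0 peaks.

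The runs began and ended within 1 window and were even in between. Leaving out the window at each end, the 21 windows of 100 kb on chromosome 1 held 58.5 ± 3.63 peaks (SD over windows, range 51 to 64), and the 18 windows on chromosome 16 held 57.9 ± 4.27 (range 51 to 66). The variance over the mean was 0.225 on chromosome 1 and 0.315 on chromosome 16. Independent points would give 1, but peaks of a list cannot overlap, which by itself lowers the ratio. It therefore cannot show whether the peaks were placed more evenly than peaks of this width must be. The edges were sharp: on chromosome 1 the window before the run held 9 peaks and its first window 58, and the last window held 57 with 5 in the next. Peaks covered 38.4% of the run on chromosome 1 and 40.3% of that on chromosome 16. The 2 runs were thus filled to a similar density, with 589 peaks per Mb on chromosome 1 and 573 on chromosome 16.

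Peaks in the stretches were wider than peaks elsewhere in the control list. Their median width was 531 bp (quartiles 370 and 823), against 358 bp (280 and 530) for the other 37281 control peaks. By chromosome the medians were 501 bp on chromosome 1 and 561 bp on chromosome 16, from a shortest peak of 234 bp on both. A width above 1 kb was reached by 16.8% of the peaks in the 2 stretches and by 6.79% of the others. The width was shared with other gene-free stretches: the median was 503 bp in that of chromosome 5, 512 bp on chromosome 19, 539 bp on chromosome 18 and 482 bp over all 22 others, where 14.5% exceeded 1 kb. Chromosomes 5 and 19 are not separate examples, since most summits of the chromosome 1 run match summits there, as described below. Outside the stretches the median was 314 bp, and 1.21% exceeded 1 kb. The widest on chromosome 16 were 3947 bp (chr16:36505573-36509519, 9.03-fold, 13 fragments), 3652 bp (chr16:38148414-38152065, 7.09-fold, 10 fragments) and 3603 bp (chr16:38160874-38164476, 6.25-fold, 8 fragments), so these rested on few fragments. On chromosome 1 they were 3035 bp (chr1:122673217-122676251, 12.1-fold, 51 fragments), 2744 bp (chr1:143262078-143264821, 4.30-fold, 355 fragments) and 2708 bp (chr1:122888484-122891191, 13.6-fold, 75 fragments). Across peaks, width and fold rose together only loosely, with a Spearman rho of 0.385 over the 1467 peaks on chromosome 1 and 0.477 over the 1128 on chromosome 16.

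Within the runs, summits followed one another at about 1.5 kb. The median distance between neighbouring summits was 1429 bp (quartiles 1042 and 2125) in the run of chromosome 1 and 1552 bp (1096 and 2134) in that of chromosome 16. The 95% intervals of these medians were 1377 to 1500 bp and 1512 to 1624 bp. They take the distances as independent, which ordered distances of 1 library are not, so they do not establish a difference between the chromosomes. Distances under 3 kb made up 90.7% of 1343 on chromosome 1 and 90.4% of 1113 on chromosome 16, the shortest was 449 bp and 397 bp, and the longest 7093 bp and 7664 bp, in the same order of chromosomes. From the end of a peak to the start of the next, the median was 736 bp on chromosome 1 and 803 bp on chromosome 16. The larger difference was one of order: on chromosome 1 the distances clustered at multiples of about 1 kb.

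Counting all pairs of summits in the stretch of chromosome 1, maxima recurred at about 1, 2, 3, 4 and 5 kb. A scan of its run over periods from 300 to 3000 bp, on pair distances from 1.5 to 10 kb, gave its maximum at 1020 bp. The amplitude there was 0.257 of the mean pair count, and at most 0.0923 at periods more than 15% away. Counted to 20 kb, the period was 1024 bp with an amplitude of 0.216, so the order carried on over many repeats. The scan of the whole stretch also gave 1020 bp, which is 5.97 times the textbook length of an alpha-satellite monomer. In the run of chromosome 16 the maximum was broader and lower, at 1668 bp with an amplitude of 0.119. It stood little above other periods, which reached 0.0929. Counted to 20 kb, its amplitude was 0.0658. Restricted to peaks with a −log10 q of at least 5, chromosome 16 gave 1680 bp at 0.264, and chromosome 1 gave 1014 bp at 0.293. No order was seen at the scale of the monomer itself: taken modulo the monomer length, neighbouring distances of at most 2 kb had a mean vector length of 0.00872 on chromosome 1 and 0.0173 on chromosome 16, where 0 is an even spread and 1 is a single phase. Scatter in the called summits lowers this length and was not measured, so an order at this scale could be missed.

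The 1020 bp order was not uniform along chromosome 1. In 6 equal sections of the run, the amplitude at 1020 bp was 0.0346, 0.0687, 0.240, 0.331, 0.387 and 0.505 from the low to the high end. The sections held 212 to 236 peaks each, with median folds between 8.43 and 9.72 and median pileups between 14 and 23 fragments. The amplitude was thus higher toward the high end, while the number and the fold of the peaks differed little. The size of the rise cannot be read as a ratio, since the first value lies below amplitudes at unrelated periods. In the first 2 sections other periods gave larger amplitudes, up to 0.186. On chromosome 16, the same sections gave between 0.0523 and 0.278 at 1668 bp. In sections 2, 4 and 5 of chromosome 16 the largest amplitudes lay at 706, 394 and 406 bp (0.157, 0.141 and 0.148), so a period near 1668 bp was not seen throughout that run.

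**Figure D2:**
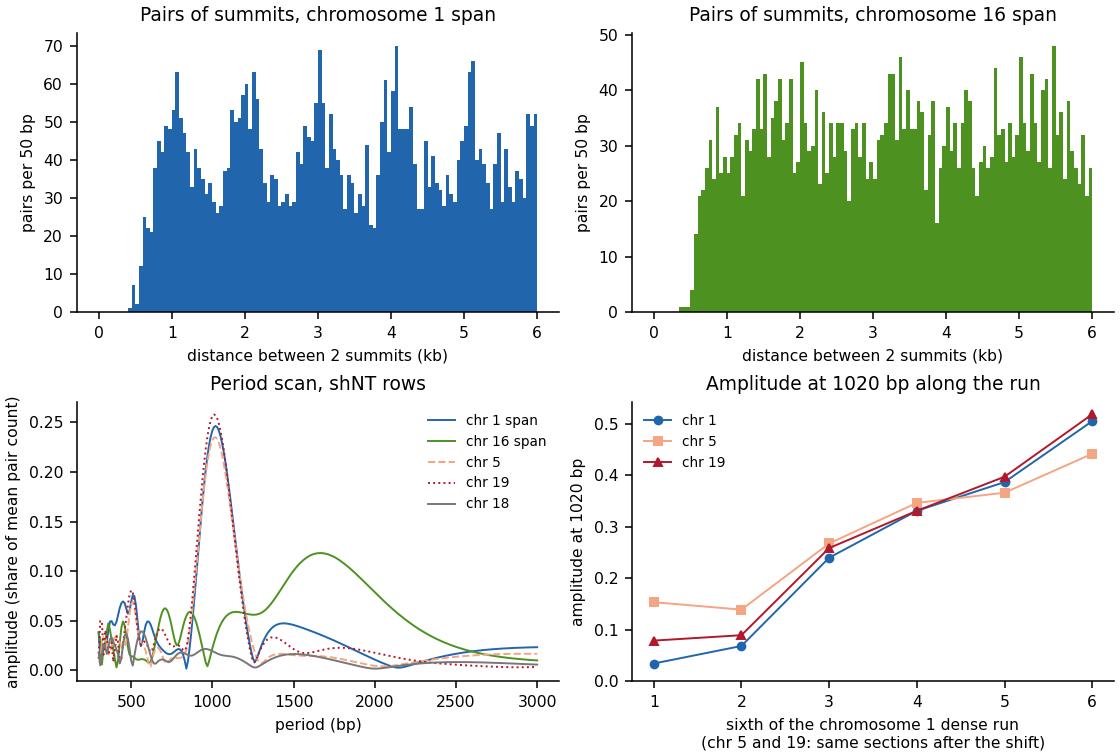
Top, the number of pairs of shNT summits per 50 bp of distance, with maxima near each whole kb on chromosome 1 (left) and weaker, broader ones on chromosome 16 (right). Bottom left, the amplitude of each period in the whole stretch, with chromosomes 1, 5 and 19 peaking near 1 kb and chromosome 18 nearly flat. Bottom right, the amplitude at 1020 bp in 6 equal sections of the chromosome 1 run and in the sections of chromosomes 5 and 19 that face it, which climbs to 0.505 on chromosome 1.

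The same period appeared on chromosomes 5 and 19, whose centromeres are known to carry an alpha-satellite family closely related to one on chromosome 1. Their longest gene-free stretches held 1413 and 1366 control peaks, with periods of 1016 bp (amplitude 0.235) on chromosome 5 and 1012 bp (0.258) on chromosome 19. The stretch of chromosome 18, with 2757 peaks the fullest of the control list, had no amplitude above 0.0394. The agreement went down to single peaks. After a constant shift of -75194063 bp, 862 of the 1344 summits in the chromosome 1 run (64.1%) lay within 50 bp of a summit on chromosome 5. After a shift of -97594558 bp, 878 (65.3%) lay within 50 bp of one on chromosome 19. In bins of 100 bp these shifts joined 847 and 869 pairs, against 122 and 120 at the next best shifts more than 1 kb away. The run was matched from its first peak to its last. In the first and last of the 6 sections facing the run, the amplitude at 1020 bp was 0.1536 and 0.4415 on chromosome 5. On chromosome 19 it was 0.0791 and 0.5182. Of the 123 peaks on chromosome 1 outside the run, 0 had a partner within 50 bp under either shift. Partners were sought only inside the gene-free stretches of chromosomes 5 and 19. The 41 peaks beyond the empty interval fall outside those stretches after either shift, so they could have no partner. Under the chromosome 19 shift this also held for the lowest peaks before the run.

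Matched peaks also had matching heights. Over the 862 pairs the median pileup was 22 fragments on chromosome 1 and 23 on chromosome 5, and over the 878 pairs it was 22 on chromosome 1 and 22 on chromosome 19. The Spearman rho of the pileups was 0.951 with chromosome 5 and 0.943 with chromosome 19, and 99.2% of pairs agreed within 2-fold in both cases. The points share a library, and peaks of different chromosomes are not independent samples here. The chromosome 1 summits matched on both chromosomes 5 and 19 numbered 692 (51.5% of the run, median pileup 24), and 296 were matched on neither (22.0%, median pileup 9). Matching rose with height: 20.7% of the lowest quartile of pileups and 80.4% of the highest were matched on both. The median pileup over all peaks of these quartiles, matched or not, was 7 and 49. From which of the 3 chromosomes the fragments of the run came therefore cannot be told apart from these lists, and the handling of reads that align to several places is a step not given in the sources used here. The cause of the match was not tested.

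**Figure D3:**
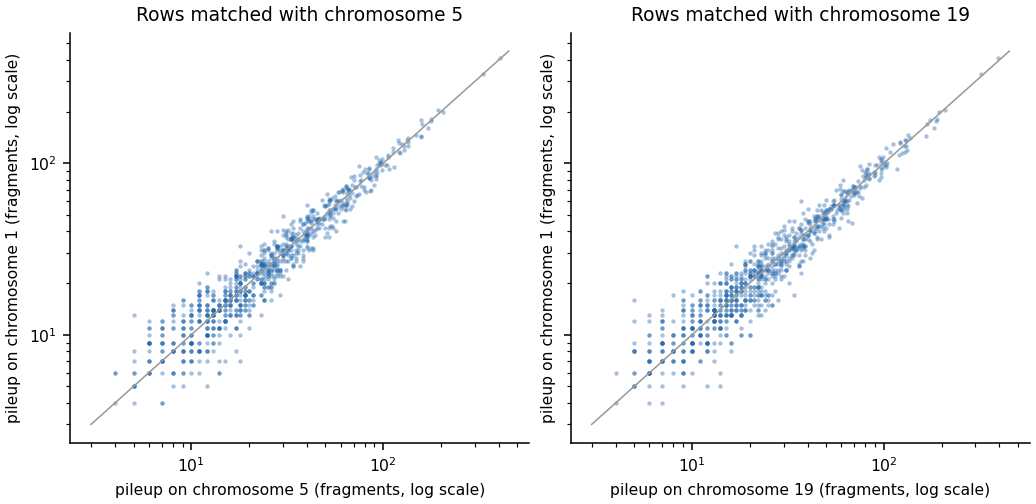
Fragment pileup at chromosome 1 summits (vertical, log scale) against that at the summit within 50 bp on chromosome 5 (left, 862 pairs) or chromosome 19 (right, 878 pairs) after the constant shift (horizontal, log scale), all from the shNT list. Points lie along the grey line of equal pileup, with Spearman rho of 0.951 and 0.943.

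No such partner was found for the run of chromosome 16. Its best shifts joined between 9 and 107 pairs per 100 bp bin with any other stretch compared, and each was close to the next best (97 pairs beside the highest, with chromosome 19). Under the best shifts, at most 106 of its 1114 summits lay within 50 bp of a partner. No constant shift stood out between the 2 stretches either, with 92 pairs at the best and 92 at the next best shift. Only constant shifts in the same direction were sought, so an inverted or interrupted copy of a layout could be missed.

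Peaks on chromosome 1 stood higher than most control peaks, and those on chromosome 16 moderately so. A fold of at least 5 was reached by 1278 of 1467 peaks (87.1%, 85.3 to 88.8) in the stretch of chromosome 1 and by 738 of 1128 (65.4%, 62.6 to 68.2) in that of chromosome 16. In all these were 2016 of 2595 (77.7%, 76.0 to 79.3), against 46.9% of the whole control list. The other control peaks reached it in 44.8% of cases (44.3 to 45.3), and those outside the longest gene-free stretches of all chromosomes in 28.9%. A −log10 q of at least 5 was met by 82.3% of the peaks on chromosome 1 and by 50.5% of those on chromosome 16, against 35.2% of the whole list. A fold of at least 10 was met by 38.0% on chromosome 1 and 4.52% on chromosome 16, against 7.01% of the list, so at this height only chromosome 1 exceeded the list.

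Shares like that of chromosome 1 were found on chromosomes 5 and 19. A fold of at least 5 was reached by 88.4% of peaks on chromosome 5 and by 88.4% on chromosome 19, whose intervals (86.6 to 90.02 and 86.5 to 90.01) overlap that of chromosome 1. Most summits of the chromosome 1 run match summits there with near-equal pileups, so these stretches are not independent comparisons. On chromosome 18 a fold of at least 5 was reached by 65.98% (64.2 to 67.7), within the interval of chromosome 16. Over the stretches of the other 22 chromosomes together, with chromosomes 5, 18 and 19 included, it was 66.9%. By this share chromosome 16 was like the other stretches together, while chromosome 1 stood above them.

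Behind a typical peak stood few fragments. The median pileup was 17 on chromosome 1 (quartiles 9 and 32.5) and 7 on chromosome 16 (5 and 9), against 6 (4 and 9) in the other control peaks. The median background was 0.937 fragments on chromosome 1 and 0.331 on chromosome 16, against 0.386 elsewhere. On chromosome 16, 31.9% of peaks had a background within 2% of the lowest in the list, while 44 of 1467 did on chromosome 1. The strongest peaks of chromosome 1 by fold lay in the run, at chr1:124594739-124595267 (31.9-fold, 54 fragments over a background of 0.722), chr1:124041483-124041845 (29.6-fold, 53 fragments) and chr1:123233604-123235116 (26.8-fold, 70 fragments). After the shifts, all 3 overlapped a peak on chromosome 5, with 47, 42 and 86 fragments, and on chromosome 19, with 52, 47 and 76.

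Beside the empty intervals, many peaks were high in both pileup and background. Beyond the interval, the 41 peaks of chromosome 1 had a median pileup of 157 fragments over a median background of 27.5, and a median fold of 5.13. The 13 of chromosome 16 had 233 fragments over 123, and a median fold of 2.31. In the runs, the corresponding medians were 17 fragments over 0.936 on chromosome 1 (9.04-fold) and 7 over 0.331 on chromosome 16 (5.64-fold). A background above 1 fragment was found at 49 of the 54 peaks beyond the intervals, at 598 of 1344 in the run of chromosome 1 and at 26 of 1114 in that of chromosome 16. By their medians, the peaks beyond the intervals were thus the highest of the stretches in fragments, but not all were high: the last peak had 4 fragments on chromosome 1 (chr1:143294998-143295294) and 5 on chromosome 16 (chr16:46465770-46466158). High peaks also lay on the near side. Among the 17 peaks between the chromosome 1 run and its interval, the pileup reached 1233 fragments and the background 301, and 33 peaks of that run and 5 before it had 100 fragments or more. On chromosome 1 the peak before the interval (chr1:125183478-125183735) had 176 fragments over 74.6 (2.34-fold), and the one after it (chr1:143184638-143185446) 284 over 45.6 (6.12-fold). On chromosome 16 the peak after it (chr16:46386212-46386591) had 199 over 76.6 (2.58-fold).

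The end of the chromosome 16 run held 4 exceptions. From 38265908 to its end, 4 peaks had 135 fragments or more, while no other peak of the run exceeded 55. The tallest, chr16:38275912-38277172, had 2152 fragments over a background of 71.8 and was 29.6-fold, the highest fold on this chromosome. Beside it stood chr16:38265908-38267465 (24.3-fold, 176 fragments), chr16:38277796-38278656 (22.7-fold, 135 fragments) and chr16:38278941-38280491 (16.4-fold, 143 fragments), the last of which borders the empty interval. Second by fold was a peak farther inside the run, chr16:36827226-36827727, with 39 fragments and 26.6-fold.

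**Figure D4:**
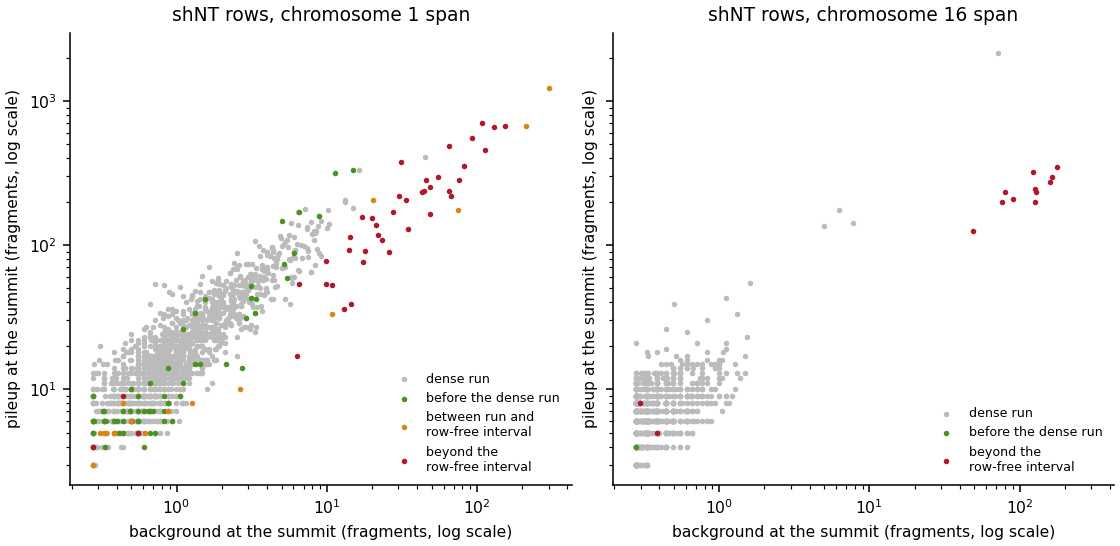
Fragment pileup at the summit (vertical, log scale) against background at the summit (horizontal, log scale) for each shNT peak of the chromosome 1 (left) and chromosome 16 (right) stretch, coloured by place. Most peaks beyond the long empty interval (red) lie to the upper right, with median pileups of 157 on chromosome 1 and 233 on chromosome 16, and 1 peak of the chromosome 16 run reaches 2152 fragments.

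The knockdown list was nearly empty in the same stretches. Of its 28187 peaks, 2 lay there (0.00710%, exact 95% interval 0.000859 to 0.0256), against 2595 of 39876 (6.51%) in the shNT list. On chromosome 1 these were 2 of the 2612 shNIT2 peaks of the chromosome, against 1467 of 3265 shNT peaks (44.9%). On chromosome 16 they were 0 of 886, against 1128 of 1814 (62.2%). Taken as 3 peaks, the limit that a count of 0 allows is 0.0106% of the knockdown list, and the exact 95% upper limit is 0.0131%. The runs, which held 2458 control peaks, had no knockdown peak. This was not particular to chromosomes 1 and 16: over the stretches of all 24 chromosomes, the knockdown list held 3 peaks, the third on chromosome 9, while those of the other 22 held 15618 control peaks. The lowest background was 2.48 fragments in shNIT2 and 0.278 in shNT, and the part of depth in the absence was not tested.

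Both knockdown peaks lay at the rims of the chromosome 1 stretch. One, chr1:121587190-121587465, began 15301 bp inside the low end, with 10 fragments over 2.48 (3.16-fold), and its nearest control peak was 24973 bp away. The other, chr1:143246867-143247198, lay beyond the empty interval, with 76 fragments over 21.95 (3.35-fold). It fell wholly within a control peak, chr1:143246778-143247535, which had 253 fragments over 48.6 (5.13-fold). That peak was the only member shared between the lists, 1 of 2595 or 0.0385% (0.000976 to 0.215), where 9.06% of all control peaks overlapped a knockdown peak. At that place the knockdown pileup was the smaller, with 76 fragments in shNIT2 and 253 in shNT. These numbers were not scaled between the libraries, so they do not measure a difference in acetylation.

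Just outside the stretches, control peaks were far fewer than in the runs. Whether their density there differed from that of the rest of the genome was not tested. Within 100 kb of the stretches there were 0 shNIT2 and 3 shNT peaks, and within 1 Mb of the chromosome 1 stretch 0 and 8. The nearest shNT peaks outside lay 38771 bp below and 206452 bp above the chromosome 1 stretch, and 14767 bp below and 25339 bp above that of chromosome 16, on 4 or 5 fragments each. On the high side of chromosome 16, within 1 Mb, the lists held 11 shNIT2 and 17 shNT peaks. The nearest shNIT2 peak there, chr16:46689910-46690593 (3.58-fold, 14 fragments), lay just inside the low-coordinate end of ORC6, a subunit of the origin recognition complex, 220574 bp from the stretch. No gene of the RefSeq table overlapped the stretches, and the nearest protein-coding genes on their high sides were H3-7, a histone H3 gene, 602869 bp away on chromosome 1, and SHCBP1, which acts in cell division, 109255 bp away on chromosome 16.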

How the data were processed

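The labels' protocols describe formaldehyde fixation, sonication and single-end sequencing. MACS2 2.1.1, Bowtie2 2.2.6, hg38, ChIPseeker, FastQC, Trimmomatic 0.35 and cutadapt 1.9.1 are listed in the submitters' processing notes. The role of input in peak calling, and the handling of duplicates and of reads with several alignments, are steps not given in the sources used here. The fold (a ratio at the summit), −log10 p-value, −log10 q-value and score of each peak are the authors' own values from the deposited lists, compared only within a list. The input libraries were not analysed here.

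Coordinates are 1-based. Gene-free stretches came from all genes of the RefSeq table (GRCh38.p14), whose bounds on chromosomes 1 and 16 are the stretches named. Pileup and background were solved from fold and p by the Poisson upper tail, within 0.1% of the −log10 p. They were found for all but 1 of the 39876 shNT peaks, and between lists they are set side by side for their scale and at 1 shared peak. A run is the longest series of 100 kb windows with at least 30 peaks. Period scans used detrended, Hann-tapered counts of pair distances in bins of 10 bp. Shifts were taken from the fullest 100 bp bin of summit differences. Scripts used Python 3.11.15, numpy 2.4.6, pandas 2.3.3 and scipy 1.17.1, and the pileup solution and period scan were tested on simulated data.

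The stretches and lists were chosen with earlier results of these data known. The runs, the period scan and the shifts were chosen after seeing the data. Named peaks are the first, last, strongest 3 and widest 3 of each stretch, those bordering its longest empty interval, and the nearest outside. The 4 peaks of 135 fragments or more at the end of the chromosome 16 run, and the knockdown peak's control partner, were named after their values were seen. No test across samples could be made, as each condition had 1 library. Shares carry exact (Clopper-Pearson) 95% intervals. Alternatives are given in the closing section.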

Additional observations from a re-analysis of the deposited data

How the results depend on the processing

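Under the alternatives, 23 values moved and 24 did not; the limits were 1.5 times for a count or amplitude, the 95% interval for a median or share and 5% for a period. The number of control peaks in the stretches was 1042 at a −log10 q of at least 10. The median width was 602 bp at a −log10 q of at least 5, 635 bp at 10 and 585 bp at a fold of at least 5, against 531 bp as deposited. The median summit distance was 1529 bp over both stretches, 1966 bp and 2420 bp at those q thresholds and 1844 bp at that fold, while the distance from an end to the next start was 779 bp. Blocks separated by gaps of 100 kb numbered 7, and 20, 12 and 4 with gaps of 20, 50 and 500 kb. The share of strong peaks was 77.7% by a fold of 5, 68.5% by a −log10 q of 5, 40.2% by 10 and 23.4% by a fold of 10, and the compared share of 44.8% was 28.9% outside the gene-free stretches. The 2 knockdown peaks became 14 with stretches widened by 1 Mb, 1 at a −log10 q of at least 5 and 0 at a fold of at least 5. From row starts the chromosome 16 period was 1776 bp, and its amplitude ranged from 0.0658 to 0.264 over the alternatives. The chromosome 1 period ranged from 1014 to 1026 bp, and matched peaks from 633 to 1070 (chromosome 5) and from 644 to 1074 (chromosome 19) under tighter and wider limits. For each value that moved the cause was not tested, apart from stricter thresholds leaving fewer peaks. No paired analysis was possible because each condition had 1 library. Depth limits the comparison of lists: total reads are unknown, and most peaks of the chromosome 16 stretch rest on fewer than 10 fragments.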
